A study of Mus musculus with 30 samples.

Results

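Genes of the major histocompatibility complex (MHC) class I loading pathway and the immunoproteasome were followed in mouse bone marrow-derived dendritic cells with and without the transcription factor gene Irf4. The set was chosen by name and held 10 genes: the immunoproteasome subunits Psmb8, Psmb9 and Psmb10, the proteasome activator subunits Psme1 and Psme2, the peptide transporter genes Tap1 and Tap2, tapasin (Tapbp), beta-2-microglobulin (B2m) and the class I heavy chain H2-K1. Each gene was read from its brightest array probe among those named through a transcript accession. By that rule 8 of the 10 genes were measured, and Psme2 and H2-K1, for which 0 probes were named through an accession, were not analysed here. These 8 stood among 11260 genes tested in the whole series, and their probes were well above background on all 30 arrays.

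The cells came from C57BL/6 mice carrying a CD11c-Cre transgene, either with no other allele named (control) or with IRF-4 flox/flox alleles (KO). Cre under the CD11c promoter removes the loxP-flanked part of Irf4 in cells that use that promoter, and the controls carried the transgene too. Cultures were unstimulated or had received lipopolysaccharide (LPS), a bacterial ligand of the receptor TLR4, for 6 or 24 h, and CD11c-positive cells were then taken with magnetic beads. This gave 6 groups of 5 biological replicates, each on 1 two-colour array with the sample in Cy5 and a universal mouse reference RNA in Cy3. The mice's ages are not stated in the sources used here. No label says whether each replicate was its own mouse or its own culture, and p-values therefore reflect the scatter among these samples, which may be technical. A level below is a log2 ratio of sample to reference, and a difference is one between 2 groups' mean levels, in which the reference cancels. Levels of different genes were not set against each other.

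As background, class I molecules display short peptides from proteins made inside the cell to CD8 T cells. The proteasome cuts those proteins, and interferons exchange its constitutive catalytic subunits for Psmb8, Psmb9 and Psmb10, which changes the peptides that are cut, while Psme1 and Psme2 form a ring that caps the core. Tap1 and Tap2 pump peptides into the endoplasmic reticulum, where tapasin helps load them onto a heavy chain paired with B2m, and in dendritic cells this machinery also serves the display of captured antigen. Many of these genes are known targets of interferon regulatory factors, STAT factors and NF-kB.

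Promoter windows, from 250 bases before to 50 after a gene's start, were matched in RefSeq (GRCm38.p6) for 9 of the 10 genes, with 11 windows in all, and not for Tap2. The stretches before the start are shown for the genes that differed between genotypes before stimulation (Psmb8, Psmb9 and Psme1), for Tap1, which shares its stretch with Psmb9, and for B2m as a gene with another pattern. Psmb9 and Tap1 lie head to head with 225 bases between their starts, so that stretch is printed once, on the strand of Tap1. Capitals mark matches to 4 motifs searched on both strands.
Psmb8, chr17:34197945-34198194, plus strand: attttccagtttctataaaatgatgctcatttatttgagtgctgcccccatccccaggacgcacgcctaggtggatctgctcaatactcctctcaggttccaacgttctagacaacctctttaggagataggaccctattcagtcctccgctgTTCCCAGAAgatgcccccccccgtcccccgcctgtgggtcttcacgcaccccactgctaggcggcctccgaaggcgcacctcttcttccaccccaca
Psmb9 and Tap1, chr17:34187331-34187555, plus strand: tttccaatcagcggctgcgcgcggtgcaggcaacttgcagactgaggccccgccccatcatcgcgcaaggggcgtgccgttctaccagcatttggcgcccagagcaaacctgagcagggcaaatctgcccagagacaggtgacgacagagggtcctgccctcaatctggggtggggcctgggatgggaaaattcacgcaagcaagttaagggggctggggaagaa
Psme1, chr14:55578244-55578493, plus strand: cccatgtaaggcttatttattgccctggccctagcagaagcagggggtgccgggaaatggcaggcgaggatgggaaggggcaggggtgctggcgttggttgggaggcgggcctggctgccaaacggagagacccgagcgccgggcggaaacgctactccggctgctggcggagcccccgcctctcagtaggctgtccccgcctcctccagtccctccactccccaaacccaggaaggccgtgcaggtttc
B2m, chr2:122147437-122147686, plus strand: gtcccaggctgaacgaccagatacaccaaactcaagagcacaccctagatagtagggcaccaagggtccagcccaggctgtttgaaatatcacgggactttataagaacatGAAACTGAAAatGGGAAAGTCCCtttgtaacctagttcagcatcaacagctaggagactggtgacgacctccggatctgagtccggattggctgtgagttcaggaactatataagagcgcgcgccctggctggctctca
The interferon regulatory factor pair GAAANNGAAA was found in the windows of B2m and Psme1, and in 3.44% of all 32851 windows of the same length. In B2m it lay at -139 to -130 relative to the start, and in Psme1 at 10 to 19, as GAAAGCGAAA on the opposite strand. The composite GGAANNGAAA was found in Psme1, where it overlapped that match, and in 2.72% of windows. The STAT-type TTCNNNGAA was found in Psmb8 and in 8.3% of windows. The NF-kB-type GGGANNNNCC was found in B2m and in both windows of H2-K1, each time on both strands with the matches overlapping, and in 20.7% of windows. The windows of Psmb9, Tap1, Psmb10, Tapbp and Psme2 held 0 matches to these letters, which says nothing of other forms of the motifs.

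Several features of the sample set touch every value. Arrays had median Cy5 signals between 101 and 151, with 18463 to 27227 of the 41174 probes well above background. Irf4 itself was 7.48-fold, 5.34-fold and 4.5-fold lower in KO than in control arrays at 0, 6 and 24 h, the direction the labels give. No source here places its probe against the floxed exons. One control array at each LPS time (replicate 3 at 6 h, replicate 2 at 24 h) came from a slide with a later scan day, called the later slide below. When the LPS change of each control array was regressed on the mean KO change, over the 1091 and 720 genes called with a 2-fold or larger KO change, these arrays had slopes of -0.0346 and 0.136 on the KO response, against 0.688 to 0.848 and 0.636 to 0.786 for the other 4 arrays of each group. Over these genes the later slide's arrays therefore showed little or none of the LPS change of the other arrays labelled alike. They were kept in the groups their labels give, every control LPS mean and response difference includes them unless stated otherwise, and why they stood apart was not tested. The 30 arrays lay on 9 slides, and 0 slides held both genotypes at 1 treatment. Markers of the labelled cell type were present: 9 of 10 dendritic cell markers were well above background on all 30 arrays, but so were 8 of 10 macrophage markers with a named probe.

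Before stimulation, Irf4 KO cells had less RNA of the immunoproteasome subunits Psmb8 and Psmb9 and of the activator subunit Psme1 than control cells. These were 3 of the 8 measured genes (Psmb8, Psmb9 and Psme1) called lower, where 7.13% of all genes tested were called lower, and 0 were called higher. For each of them the highest KO array was below the lowest control array, a separation seen in 9.48% of all genes. The median difference over the 8 genes was -0.74, against -0.0382 over all genes. Here and below, called means that limma's p, adjusted over all genes tested by Benjamini-Hochberg, was under 0.05.

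Psmb8 encodes the chymotrypsin-like catalytic subunit of the immunoproteasome. Its levels in unstimulated control replicates 1 to 5 were 2.49, 2.52, 2.45, 2.58 and 2.44, and in KO replicates 0.99, 1.59, 1.61, 1.70 and 0.87. The controls were nearly alike, while the KO arrays were all lower and spread more widely, with replicates 1 and 5 lowest. The difference was -1.14 (SE 0.19, 2.21-fold lower, adjusted p = 0.000118 in limma, n = 5 each). A second probe gave -1.15.

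Psmb9 encodes the catalytic subunit that replaces the caspase-like one. Its control levels were 1.95, 1.87, 1.86, 2.06 and 2.27 and its KO levels -0.14, 0.93, 0.77, 1.03 and 0.31. KO replicates 1 and 5 were again lowest, and the groups did not overlap. The difference was -1.42 (SE 0.28, 2.68-fold lower, adjusted p = 0.000759 in limma, n = 5 each).

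Psme1 encodes the alpha subunit of the activator PA28, whose partner is Psme2. Control levels were 0.83, 0.71, 0.79, 0.94 and 0.82, and KO levels -0.61, 0.0326, 0.0611, 0.0820 and -0.47. The same pair of KO arrays was lowest and the groups were apart. The difference was -1.0 (SE 0.19, 2.00-fold lower, adjusted p = 0.000627 in limma, n = 5 each).

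The transporter gene Tap1, which shares its promoter stretch with Psmb9, had control levels of 1.10, 1.49, 1.22, 0.67 and 0.46 and KO levels of -0.40, 0.48, 0.0627, 0.30 and -0.69. The groups met at the low end of the controls, since control replicate 5 lay just below KO replicate 2. The difference of -1.04 (SE 0.41) was as large as that of Psme1 but was not called (adjusted p = 0.0888 in limma). Tap1 was called lower in 5 other settings: without the later slide (adjusted p = 0.0495), with the replicate block (0.0218), the replicate set term (0.0200), the compared arrays alone (0.0184) and trend and array weights (9.88e-05). Over all settings that left out no single array, its adjusted p ranged up to 0.875, in the fit with slide and replicate set terms, where the difference was 0.37.

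The other members did not pass. The transporter partner Tap2 differed by -0.48 (95% interval -1.32 to 0.37) and the trypsin-like subunit Psmb10 by -0.29 (-0.83 to 0.25), the latter called lower under median centring (-0.60, adjusted p = 0.0193 in limma). Tapasin differed by 0.0424 (-1.18 to 1.26) and B2m by 0.15 (-0.98 to 1.28). Their second probes gave -0.25 and -0.0841, neither called (adjusted p = 0.719 and 0.938 in limma). On the probes used, the interval of Tapbp spans 2-fold changes either way and that of B2m nearly does, so these arrays do not bound them closely.

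The 3 differences were alike in replicates 1 to 3 and in replicates 4 and 5: -1.09 and -1.22 for Psmb8, -1.37 and -1.49 for Psmb9, and -0.95 and -1.07 for Psme1. They stayed called when any 1 of the 10 arrays compared was left out. With the slide as a block the values were -0.32, -1.09 and -0.42 and the calls were lost. That fit reaches a genotype difference only through a chain of slides, and in it B2m (4.31), Tapbp (4.3), Tap2 (2.61), Tap1 (2.18) and Psmb10 (1.38) were called higher in KO. With slide and replicate set terms, a fit added after seeing the data, Psmb8, Psmb9 and Psme1 differed by -0.92, -0.0859 and -0.33, none called. Slide and genotype cannot be told apart within any 1 treatment.

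Markers of cell types moved with this comparison, in which 803 of all 11260 genes tested were called lower and 784 higher. Of 9 dendritic cell markers tested 6 were called lower in unstimulated KO cells (the class II genes H2-Aa, H2-Eb1 and Cd74, their regulator Ciita, Ccr7 and Cd86) and 0 higher, and the mean log2 ratio over the list was 3.20 to 3.33 per control array and 1.51 to 2.64 per KO array. Itgax, which encodes CD11c, differed by 0.40 (adjusted p = 0.101). Of 10 macrophage markers 2 were called higher (Marco and Cd14) and 0 lower, with list means of 1.76 to 2.99 in control and 2.53 to 3.53 in KO arrays. Of 9 neutrophil markers 1, Ltf, was called lower, with list means of 1.32 to 2.33 and 0.87 to 1.62, and Elane was above background on 0 arrays. In bulk RNA, fewer cells of a type and less RNA per cell cannot be told apart, and the part of these markers in the result was not tested.

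**Figure D1:**
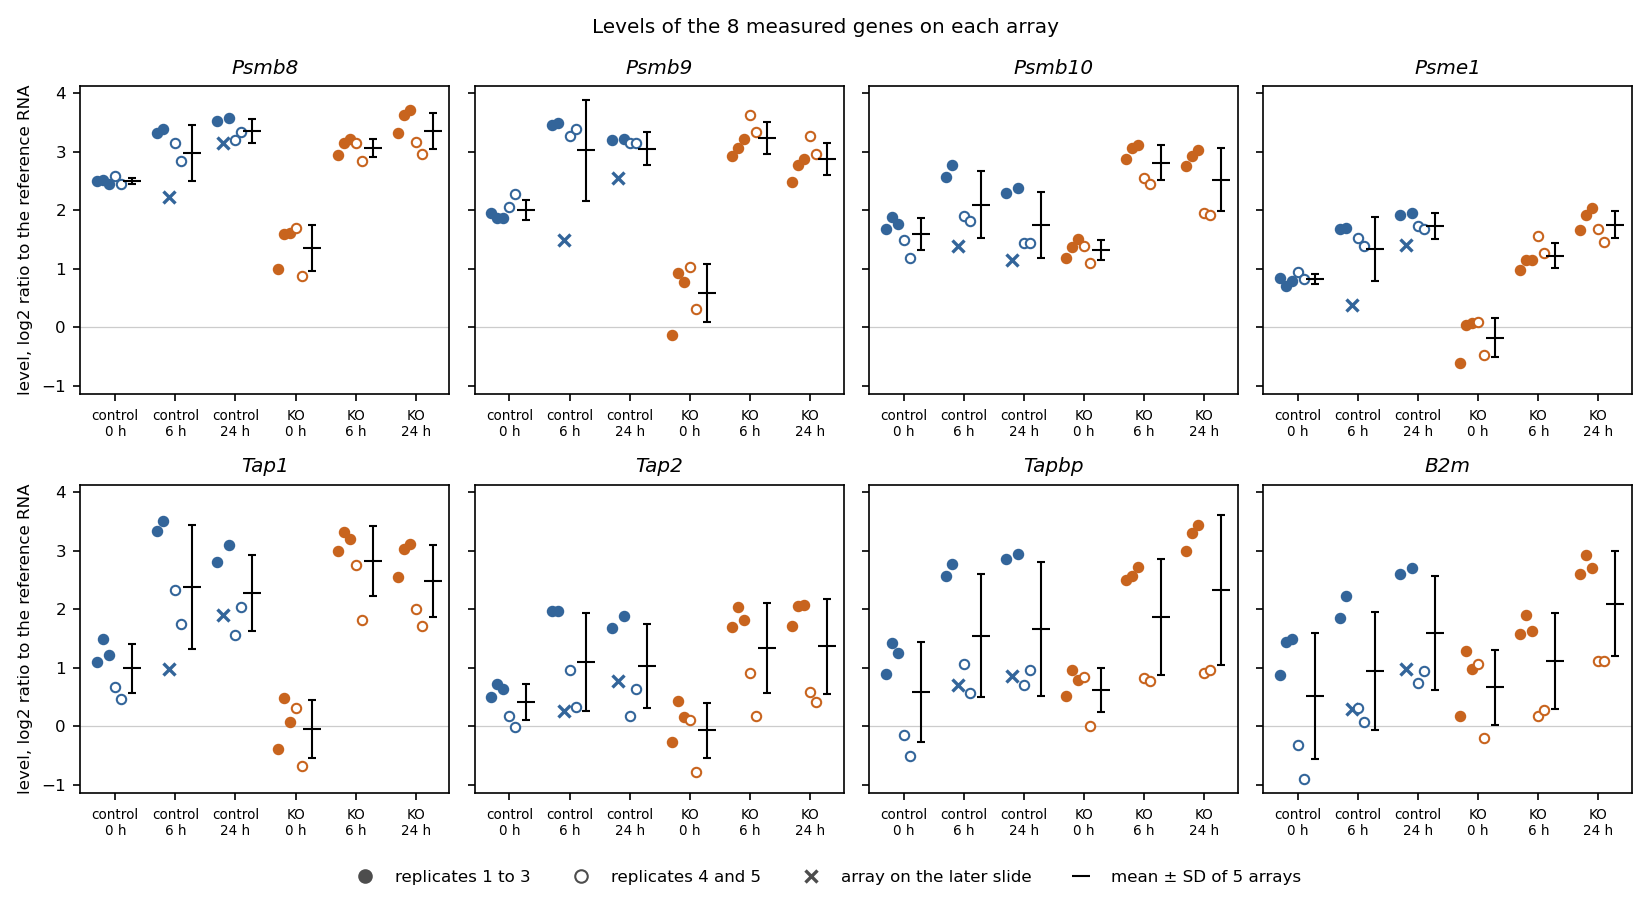
Level of each of the 8 measured genes (log2 ratio of sample to reference RNA, vertical axis) on each array, in columns for the 6 groups (control in blue, Irf4 KO in orange; 0, 6 and 24 h of LPS). Filled points are replicates 1 to 3, open points replicates 4 and 5, crosses the 2 arrays on the later slide, and black marks the mean ± SD of 5 arrays; in unstimulated cells the KO points of Psmb8, Psmb9 and Psme1 lie wholly below the control points.

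In control cells, LPS raised Psmb9 and Tap1 by 6 h and Psmb8, Psmb9, Psme1 and Tap1 by 24 h. These were 2 of 8 genes called higher at 6 h, where 7.15% of all genes were, and 4 of 8 at 24 h, where 7.23% were, and 0 were called lower at either time. All 8 differences were positive at both times (Psmb10 at 24 h was -0.0179 with Cy5 alone), with medians of 0.60 and 0.98 against 0.00672 and 0.0157 over all genes.

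Psmb8 in control cells had levels of 3.32, 3.39, 2.22, 3.15 and 2.83 at 6 h and 3.52, 3.14, 3.58, 3.20 and 3.33 at 24 h. At 24 h every array lay above the unstimulated ones (2.44 to 2.58), while at 6 h replicate 3, on the later slide, lay below them. The rise was 0.49 (SE 0.19, adjusted p = 0.0964 in limma) at 6 h and 0.86 (SE 0.19, 1.81-fold, adjusted p = 0.00383) at 24 h, n = 5 each. Without the later slide the 6 h rise was 0.68 and was called (adjusted p = 0.00358).

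Psmb9 reached 3.45, 3.49, 1.48, 3.27 and 3.39 at 6 h and 3.19, 2.55, 3.21, 3.14 and 3.15 at 24 h. Replicate 3 at 6 h was again below the unstimulated range, and replicate 2 at 24 h, on the same slide, was the lowest of its group. The rise was 1.01 (SE 0.28, adjusted p = 0.0164 in limma) at 6 h and 1.05 (SE 0.28, 2.06-fold, adjusted p = 0.0140) at 24 h. The 6 h value was 1.40 without the later slide, and the 6 h call was lost without control LPS 6 h replicate 1 or 2 (adjusted p up to 0.0662).

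Psme1 in control cells had levels of 1.67, 1.70, 0.37, 1.53 and 1.38 at 6 h and 1.91, 1.41, 1.95, 1.72 and 1.68 at 24 h. The array at 0.37 is replicate 3 of the later slide, and the 24 h arrays all exceeded the unstimulated ones. The rise was 0.51 (SE 0.19, adjusted p = 0.0835 in limma) at 6 h and 0.92 (SE 0.19, 1.89-fold, adjusted p = 0.00258) at 24 h. Without the later slide the 6 h rise was 0.75 (adjusted p = 0.00027).

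Tap1 had levels of 3.34, 3.51, 0.98, 2.32 and 1.75 at 6 h and 2.81, 1.89, 3.1, 1.55 and 2.04 at 24 h in control cells. It rose most among the members that were called, by 1.39 (SE 0.41, 2.62-fold, adjusted p = 0.0242 in limma) and 1.29 (SE 0.41, 2.44-fold, adjusted p = 0.0358). Leaving out 1 array ended the call at 6 h for control LPS 6 h replicates 1 and 2 and unstimulated replicates 4 and 5 (adjusted p up to 0.106). It ended the call at 24 h for control LPS 24 h replicates 1 and 3 and unstimulated replicates 1, 4 and 5 (up to 0.108). Centring each array on its median in place of loess also lost both calls (adjusted p = 0.129 and 0.132).

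The 4 other genes were not called in control cells at either time. Psmb10 differed by 0.49 and 0.14, Tap2 by 0.69 and 0.62, Tapbp by 0.96 and 1.08 and B2m by 0.43 and 1.08 at 6 and 24 h. One slide held both unstimulated (replicates 4 and 5) and LPS 6 h (replicates 1 and 2) control arrays, and within it the 6 h rise was 0.85 for Psmb8, 1.31 for Psmb9, 0.81 for Psme1 and 2.86 for Tap1. For Tapbp and B2m it was 3.00 and 2.65 there, values that set replicates 1 and 2 against 4 and 5. Between 6 and 24 h, 0 of 8 genes were called in control cells, where 5.48% of all genes were called in either direction, and 1 (Psme1) had an unadjusted p under 0.05 in limma.

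LPS raised most of the pathway in Irf4 KO cells. At 6 h 6 of 8 genes were called higher (Psmb8, Psmb9, Psmb10, Psme1, Tap1 and Tap2), where 14.2% of all genes were, and at 24 h 7 of 8 were, all but B2m, where 10.2% of all genes were. The largest rises were those of Tap1 and Psmb9. All 5 LPS arrays lay above all 5 unstimulated ones for Psmb8, Psmb9, Psmb10, Psme1 and Tap1 at both times, a separation that 13.9% of all genes showed at 6 h and 12.1% at 24 h. Medians over the 8 genes were 1.45 and 1.81, against 0.0252 and 0.0171 over all genes.

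Tap1 in KO cells rose to levels of 2.99, 3.32, 3.19, 2.76 and 1.82 at 6 h and 2.55, 3.03, 3.11, 2.00 and 1.71 at 24 h. Even its lowest LPS array was more than 1 log2 unit above its highest unstimulated one (0.48). The differences were 2.87 (SE 0.41, 7.29-fold, adjusted p = 7.82e-06 in limma) and 2.53 (SE 0.41, 5.78-fold, adjusted p = 6.95e-05).

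Psmb9 reached 2.93, 3.06, 3.21, 3.63 and 3.33 at 6 h and 2.48, 2.77, 2.87, 3.26 and 2.96 at 24 h in KO cells. These overlap the control LPS arrays, and all lie above the KO arrays without LPS. The differences were 2.65 (SE 0.28, 6.27-fold, adjusted p = 1.78e-07 in limma) and 2.29 (SE 0.28, 4.88-fold, adjusted p = 2.26e-06).

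Psmb8 reached 2.94, 3.15, 3.21, 3.15 and 2.83 at 6 h and 3.31, 3.63, 3.71, 3.17 and 2.96 at 24 h. The differences were 1.70 (SE 0.19, 3.26-fold, adjusted p = 3.45e-07 in limma) and 2.00 (SE 0.19, 4.01-fold, adjusted p = 9.34e-08). The 5 Psmb8 arrays ran from 2.83 to 3.21 at 6 h and from 2.96 to 3.71 at 24 h. Replicates 1 to 3 all lay above replicates 4 and 5 at 24 h. Psme1 followed Psmb8, from 0.98, 1.15, 1.14, 1.56 and 1.27 at 6 h to 1.66, 1.92, 2.03, 1.68 and 1.46 at 24 h, with differences of 1.40 (SE 0.19, 2.64-fold) and 1.93 (SE 0.19, 3.81-fold). Its change from 6 to 24 h, 0.53 (SE 0.19), was not called (adjusted p = 0.0902 in limma) and was called without the later slide (adjusted p = 0.00913).

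Psmb10 had KO levels of 1.18, 1.37, 1.5, 1.39 and 1.09 before LPS, 2.87, 3.06, 3.11, 2.55 and 2.45 at 6 h, and 2.75, 2.93, 3.03, 1.95 and 1.92 at 24 h. Replicates 4 and 5 were lowest at both LPS times, and every LPS array exceeded every unstimulated one. The differences were 1.5 (SE 0.26, 2.83-fold, adjusted p = 0.000116 in limma) and 1.21 (SE 0.26, 2.31-fold, adjusted p = 0.00181).

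Tap2, the partner of Tap1 in the transporter, had KO levels of -0.27, 0.43, 0.16, 0.11 and -0.78 before LPS, 1.69, 2.04, 1.82, 0.91 and 0.18 at 6 h, and 1.71, 2.05, 2.07, 0.58 and 0.41 at 24 h. It rose by 1.40 (SE 0.41, 2.63-fold, adjusted p = 0.0124 in limma) at 6 h and 1.43 (SE 0.41, 2.70-fold, adjusted p = 0.0156) at 24 h. The groups overlapped through replicate 5 at each LPS time. Replicates 1 to 3 were highest. The 24 h call was lost without KO LPS 24 h replicate 3 (adjusted p = 0.0509). Median centring ended both Tap2 calls (adjusted p = 0.0887 and 0.0936). In control cells Tap2 was at 0.50, 0.72, 0.64, 0.18 and -0.0149 before LPS, 1.97, 1.97, 0.26, 0.96 and 0.33 at 6 h, and 1.67, 0.77, 1.88, 0.18 and 0.63 at 24 h, with groups that overlapped.

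On the 1 slide that held both groups (LPS 6 h replicate 1 and unstimulated replicates 3 to 5), the 6 h rise in KO cells was 3.1 for Tap1, 2.23 for Psmb9, 1.86 for Tap2, 1.55 for Psmb8, 1.54 for Psmb10 and 1.09 for Psme1. With the slide as a block and a term for replicates 1 to 3 against 4 and 5, a fit added after seeing the data, 5 of the 6 calls at 6 h held and that of Tap2 did not. At 24 h 0 calls held in that fit, and with the slide alone the 24 h differences of Tapbp (-4.52), B2m (-4.47), Tap2 (-2.82), Tap1 (-1.74) and Psmb10 (-1.23) turned negative. There 0 slides held both unstimulated and 24 h KO arrays. Between 6 and 24 h, 0 of 8 genes were called in KO cells, where 7.74% of all genes were called in either direction, and 1 (Psme1) had an unadjusted p under 0.05 in limma.

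**Figure D2:**
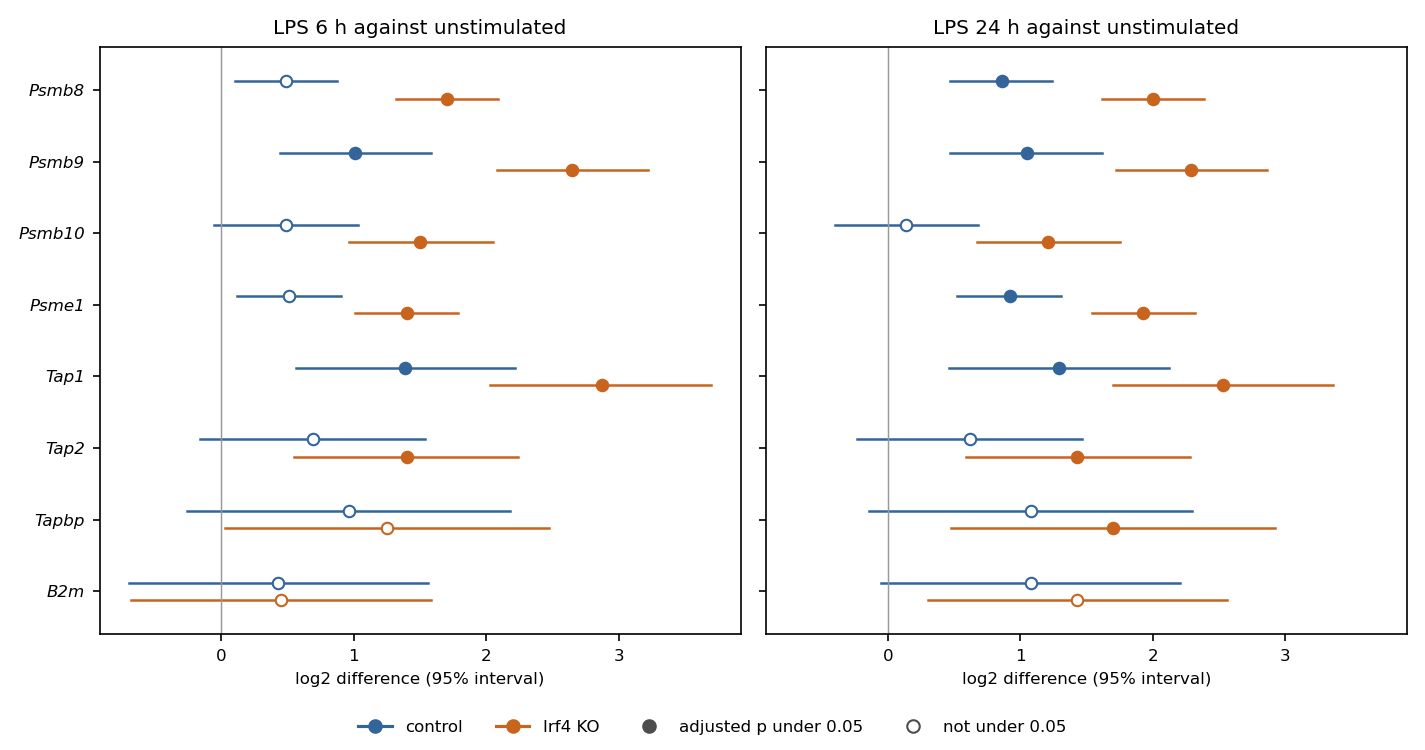
Log2 difference between LPS and unstimulated cells (horizontal axis) with its 95% interval for each gene, at 6 h (left) and 24 h (right), in control (blue) and Irf4 KO cells (orange). Filled points were called at an adjusted p under 0.05; every KO point lies to the right of its control point, and those of B2m and Tapbp overlap most.

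After LPS, the 3 genes that differed before it were not called between KO and control cells, and each estimate of the main fit was within 0.21 of 0. At 6 h 0 of 8 genes were called, where 12.1% of all genes were called in either direction, and 1 (Psmb10) had an unadjusted p under 0.05 in limma. Psmb8 differed by 0.0746 (95% interval -0.31 to 0.46), Psmb9 by 0.21 (-0.36 to 0.78) and Psme1 by -0.11 (-0.50 to 0.28). At 24 h the values were 0.0025 (-0.38 to 0.39), -0.18 (-0.75 to 0.39) and 0.0138 (-0.38 to 0.41). Tap1 differed by 0.44 (-0.40 to 1.27) at 6 h and 0.20 (-0.63 to 1.04) at 24 h. Some settings gave lower KO values. With trend and array weights Psme1 at 6 h (-0.50, adjusted p = 0.00129 in limma) and Psmb9 at 24 h (-0.44, adjusted p = 0.00866) were called lower, and with the slide as a block Psmb8 at 24 h was (-1.18, adjusted p = 0.0293). Median centring gave -0.44 for Psme1 at 6 h, not called. Without the later slide, Psmb8, Psmb9 and Psme1 at 6 h differed by -0.12, -0.17 and -0.35, so the first pair changed sign. At 24 h they then differed by -0.0517, -0.31 and -0.0683, and none was called at either time.

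Psmb10 was called higher in KO cells at 24 h, the 1 gene of 8 so called, where 6.97% of all genes were. A single call among 8 genes is not far from that share. Control levels at 24 h were 2.29, 1.14, 2.38, 1.43 and 1.44, against KO levels of 2.75, 2.93, 3.03, 1.95 and 1.92. The groups overlapped, with replicates 4 and 5 low in both genotypes and control replicate 2 lowest. The difference was 0.78 (SE 0.26, 1.72-fold, adjusted p = 0.0450 in limma), and at 6 h it was 0.72 (SE 0.26, adjusted p = 0.0753), which was called without control LPS 6 h replicate 1 (adjusted p = 0.0488) or 2 (0.0276). The 24 h call was lost without the later slide (0.63, adjusted p = 0.107). Leaving out any 1 of KO LPS 24 h replicates 1, 2 and 3 or control LPS 24 h replicates 2, 4 and 5 also ended it (adjusted p up to 0.148). So did background as scanned, no filter, the compared arrays alone, and slide and replicate set terms. With the slide as a block the difference was -1.39, called lower in KO cells (adjusted p = 0.0367 in limma).

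**Figure D3:**
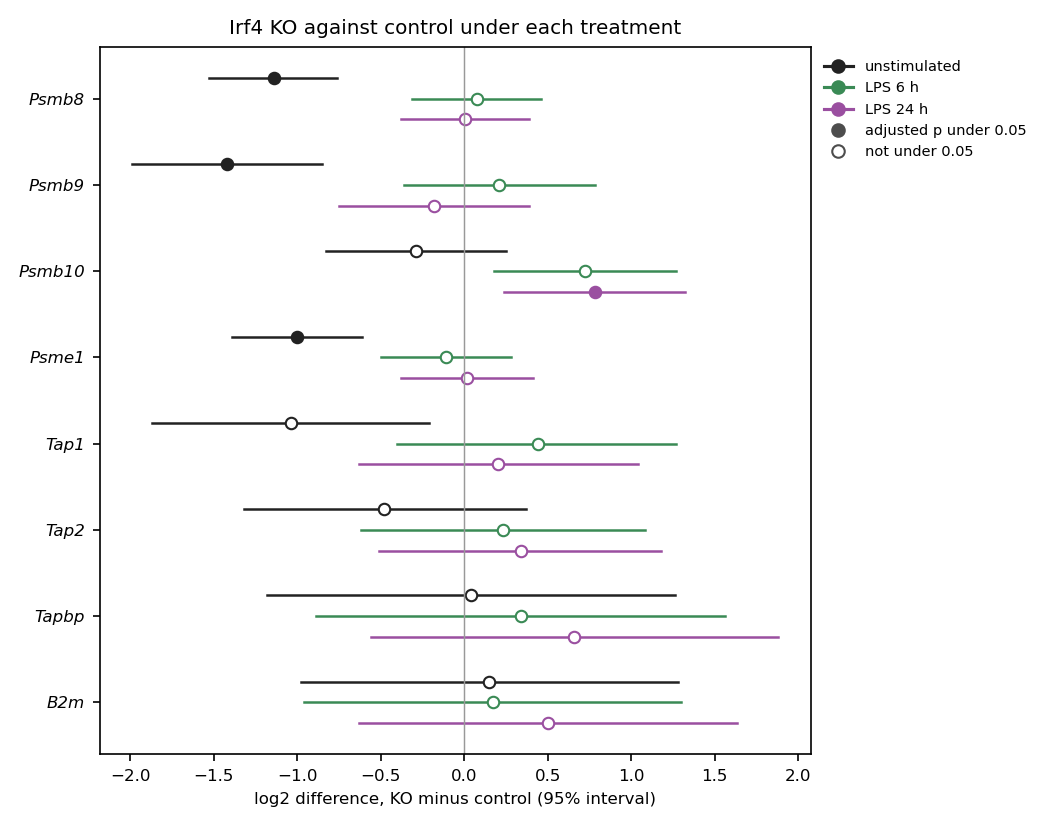
Log2 difference between Irf4 KO and control cells (horizontal axis) with its 95% interval for each gene, unstimulated (black) and after 6 h (green) or 24 h (purple) of LPS. Filled points were called; Psmb8, Psmb9 and Psme1 lie at -1.14, -1.42 and -1.0 before LPS and near 0 after it.

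The LPS response itself was compared between genotypes as a difference of differences, which shares its unstimulated arrays with the comparisons above. Psmb8 responded more in KO cells, by 1.22 at 6 h (SE 0.27, adjusted p = 0.0290 in limma) and 1.15 at 24 h (SE 0.27, adjusted p = 0.0341). It was the 1 gene of 8 called at either time, where 0.293% and 0.426% of all genes were called higher. The median difference of responses was 0.95 at 6 h and 1.04 at 24 h, against 0.00701 and 0.0137 over all genes. All 8 values were positive over all arrays, but not in each setting. Within replicates 4 and 5 Tapbp (-0.77 and -0.64) and B2m (-1.01 and -0.77) were negative at 6 and 24 h, and B2m was with Cy5 alone (-0.22 and -0.00696). With slide and replicate set terms Tapbp (-0.51) and B2m (-1.23) were negative at 6 h, and Tap1 (-2.07), B2m (-1.90), Psmb9 (-1.52), Psme1 (-0.65), Tapbp (-0.39) and Tap2 (-0.0352) at 24 h. Psmb9 had 1.64 (SE 0.39, adjusted p = 0.0556) and 1.24 (SE 0.39, adjusted p = 0.147), and Psme1 had 0.89 (SE 0.27, adjusted p = 0.208) and 1.01 (SE 0.27, adjusted p = 0.0686). Tap1 had 1.48 and 1.24, and Psmb10 1.01 and 1.07, none of these called.

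These calls lay near the threshold. Psmb8 lost its call without 8 of 20 single arrays at 6 h (adjusted p up to 0.0756) and 11 of 20 at 24 h (up to 0.0804), with values of 1.03 to 1.32 and 1.03 to 1.24. The arrays were KO LPS 6 h replicates 2, 3 and 4 and control LPS 6 h replicate 5 at 6 h. At 24 h they were KO LPS 24 h replicates 1 to 3, control LPS 24 h replicates 2, 4 and 5 and unstimulated control replicate 5. At both times they were unstimulated KO replicates 1 and 5 and unstimulated control replicates 1 and 4. Without the later slide, Psmb8 (1.03 and 1.09) stayed called at both times, Psmb9 (1.25 and 1.12) was called at both and Psme1 (0.93) at 24 h. The 6 h value of Psmb9 was also called without unstimulated KO replicate 4 or control LPS 6 h replicate 2 or 3. Local backgrounds as scanned ended both Psmb8 calls, and a fit of the compared arrays alone ended the one at 6 h. With the slide as a block the Psmb8 differences were 0.70 at 6 h and -0.87 at 24 h. With slide and replicate set terms they were 0.78 and 0.33, and none of these was called.

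In mean level, replicates 4 and 5 stood apart from replicates 1 to 3 for several members, with the widest gaps in Tapbp and B2m. Tapasin had levels of 0.89, 1.42, 1.25, -0.15 and -0.51 in unstimulated control replicates 1 to 5, and 0.51, 0.96, 0.79, 0.83 and 0.00903 in KO replicates. After 24 h of LPS they were 2.86, 0.85, 2.94, 0.70 and 0.95 in control and 3.00, 3.30, 3.44, 0.90 and 0.96 in KO cells. In KO cells at 24 h the mean of replicates 4 and 5 lay 2.31 below that of replicates 1 to 3, and control replicate 2, on the later slide, lay with them.

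B2m showed a like gap in means, though the replicate sets overlapped in unstimulated KO cells and in control cells at 6 h. Its unstimulated levels were 0.87, 1.44, 1.49, -0.33 and -0.91 in control and 0.17, 1.29, 0.98, 1.06 and -0.20 in KO cells. At 24 h they were 2.60, 0.97, 2.70, 0.73 and 0.94, and 2.60, 2.93, 2.70, 1.12 and 1.11.

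For Tapbp, B2m, Tap1, Tap2 and Psmb10 the mean of replicates 1 to 3 exceeded that of replicates 4 and 5 in all 6 groups. Every array of replicates 1 to 3 lay above both others in 3, 4, 3, 4 and 3 of these groups, respectively. The gap ranged from 0.33 to 2.31 for Tapbp, 0.38 to 1.89 for B2m, 0.44 to 1.45 for Tap2, 0.25 to 1.04 for Tap1 and 0.11 to 0.97 for Psmb10. Psmb9 ran the other way in all 6 groups, by -0.52 to -0.15, and Psmb8 and Psme1 were mixed, higher in replicates 1 to 3 in 4 and 3 groups. No label says what the replicate numbers stand for.

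The error of the last steps was larger than that of the catalytic subunits. At 6 h Tapbp was at 2.57, 2.77, 0.71, 1.06 and 0.57 in control and 2.49, 2.57, 2.71, 0.82 and 0.77 in KO cells. In KO cells it differed from unstimulated by 1.25 (SE 0.60, adjusted p = 0.122 in limma) at 6 h and rose by 1.70 (SE 0.60, 3.25-fold, adjusted p = 0.0468) at 24 h. Within replicates 1 to 3 the rises were 1.84 and 2.49, and within replicates 4 and 5 they were 0.38 and 0.51. The 24 h call of Tapbp was lost without any 1 of 8 arrays, which were KO LPS 24 h replicates 1, 2 and 3 and each of the 5 unstimulated KO replicates (adjusted p up to 0.127). A term for the replicate set, added after seeing the data, brought the 6 h difference past the threshold (adjusted p = 0.00825). A second probe for Tapbp, which names another transcript, rose by 1.09 (adjusted p = 0.0384) and 1.34 (adjusted p = 0.0180).

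At 6 h B2m was at 1.84, 2.22, 0.29, 0.30 and 0.065 in control and 1.58, 1.90, 1.62, 0.18 and 0.27 in KO cells. Its differences from unstimulated KO cells were 0.45 (SE 0.55) and 1.43 (SE 0.55, adjusted p = 0.0707 in limma), neither called. At 24 h they were 1.93 within replicates 1 to 3 and 0.68 within 4 and 5. The 24 h rise was called without KO LPS 24 h replicate 5 (adjusted p = 0.0487), under median centring (1.57, adjusted p = 0.0119) and with the replicate set term (adjusted p = 0.00221). The second probe for B2m gave 1.56 (adjusted p = 0.0437) at 24 h, so the probes fall on either side of the threshold. The unstimulated genotype differences had opposite signs in the replicate sets, at -0.43 and 0.75 for Tapbp and -0.45 and 1.05 for B2m.

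**Figure D4:**
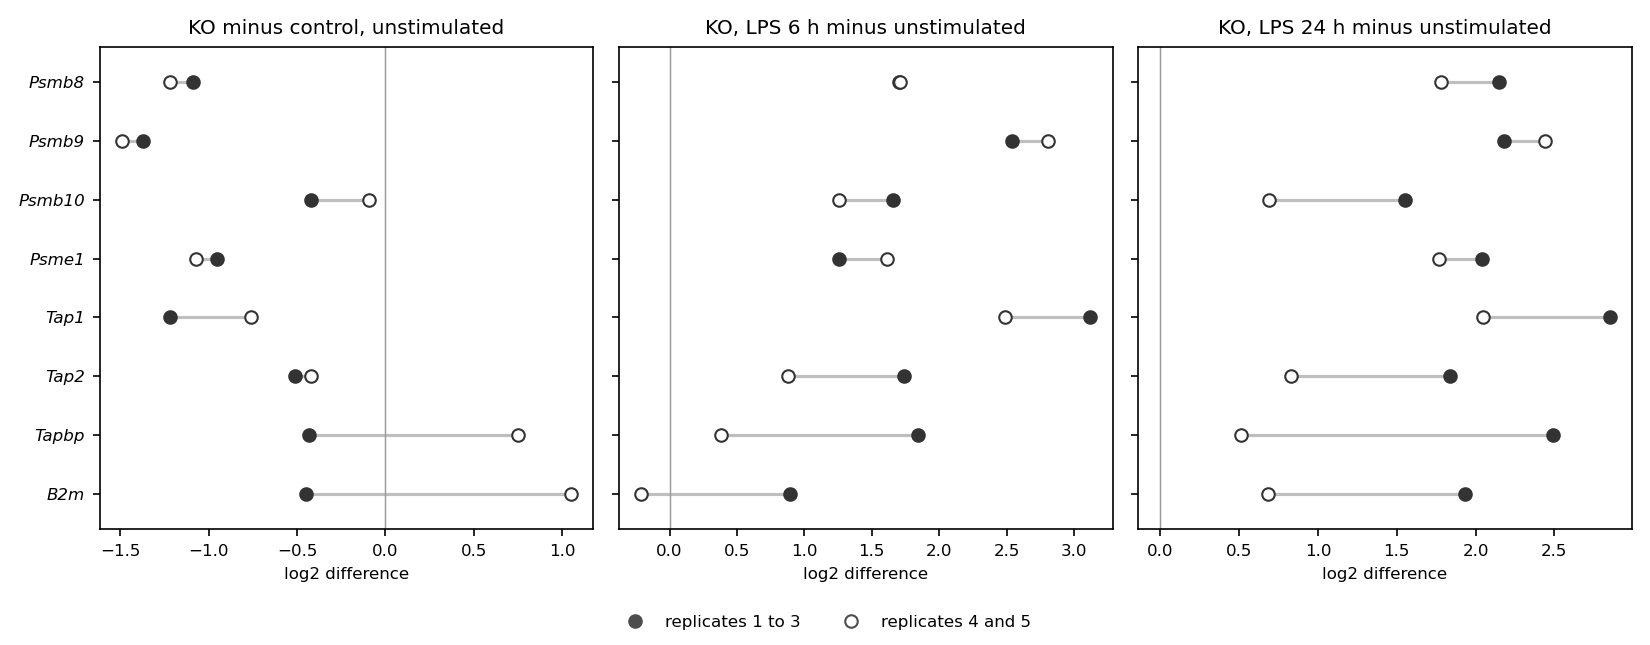
Log2 differences (horizontal axis) computed from replicates 1 to 3 (filled) and from replicates 4 and 5 (open) for each gene, for KO against control before LPS (left) and for LPS at 6 h (middle) and 24 h (right) in KO cells. The points of Psmb8, Psmb9 and Psme1 nearly coincide in the left panel, while those of Tapbp and B2m lie on either side of 0.

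By mean level, the 2 lowest of the 6 groups were the same for the 3 genes with a genotype difference, and the LPS groups ranked differently. Unstimulated KO was lowest for each (1.35 ± 0.39 for Psmb8, 0.58 ± 0.49 for Psmb9 and -0.18 ± 0.33 for Psme1, SD, n = 5), and unstimulated control was next (2.50 ± 0.0547, 2.00 ± 0.17 and 0.82 ± 0.0799). The 4 LPS groups followed, from 2.98 to 3.35 for Psmb8, 2.87 to 3.23 for Psmb9 and 1.22 to 1.75 for Psme1. KO LPS 24 h was highest for Psme1 and lowest of the 4 for Psmb9, and KO LPS 6 h was highest for Psmb9 and lowest of the 4 for Psme1. Among those 4 groups 0 of the differences between genotypes at 1 time, or between times in 1 genotype, were called for these 3 genes. Tap1 had the same lowest groups (-0.05 ± 0.49 and 0.99 ± 0.42) but the difference between them was not called, and its LPS groups ran from 2.28 to 2.82.

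Psmb10 and Tap2 were highest in the KO LPS groups. Psmb10 ran from unstimulated KO (1.31 ± 0.17, SD, n = 5) and control (1.59 ± 0.27) through control LPS 24 h (1.74 ± 0.56) and 6 h (2.09 ± 0.57) to KO LPS 24 h (2.52 ± 0.54) and 6 h (2.81 ± 0.30). Tap2 ran from -0.0689 ± 0.47 and 0.41 ± 0.31 in unstimulated KO and control to 1.33 ± 0.77 and 1.36 ± 0.81 in KO LPS 6 h and 24 h. On the probes used, Tapbp and B2m were lowest in unstimulated control (0.58 ± 0.86 and 0.51 ± 1.08) and highest in KO LPS 24 h (2.32 ± 1.28 and 2.09 ± 0.90). On their second probes unstimulated KO was lowest (0.0771 ± 0.31 and 0.65 ± 0.75), below unstimulated control (0.33 ± 0.27 and 0.73 ± 0.96). KO LPS 24 h was highest on these probes too. The order of the unstimulated groups thus depended on the probe.

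The 3 immunoproteasome subunits take the places of Psmb5 (replaced by Psmb8), Psmb6 (by Psmb9) and Psmb7 (by Psmb10) in the core particle. In unstimulated KO cells Psmb5 differed by 0.19 (adjusted p = 0.520 in limma) and Psmb6 by 0.59 (adjusted p = 0.0839), while Psmb7 was lower by -0.63 (SE 0.18, adjusted p = 0.0160). Psmb6 was higher in KO cells at 6 h (0.90, SE 0.23, adjusted p = 0.00904) and 24 h (0.99, SE 0.23, adjusted p = 0.00336), and Psmb5 at 24 h (0.56, SE 0.18, adjusted p = 0.0302). In KO cells Psmb7 rose with LPS by 0.84 and 0.79 and Psmb6 by 0.87 at 6 h, all called, whereas in control cells 0 of the 3 were called at 6 or 24 h.

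Other parts of the proteasome are given by list, beside the shares over all genes printed above for the same comparisons. Of 15 further core subunits and assembly factors 2 were called lower in unstimulated KO cells, Psma4 (-0.81) and Psma7 (-0.77), with a list median of -0.32, where 7.13% of all genes were called lower. After LPS in KO cells 5 were higher at 6 h, led by Psma5 (1.16), and 4 at 24 h, where 14.2% and 10.2% of all genes were called higher. In control cells 0 were called at either time, where 1313 and 1385 of 11260 genes were. Of 21 regulatory cap subunits 1, Psmd4 (-0.27), was lower in unstimulated KO cells, where 7.13% of all genes were called lower. In KO cells 1 rose at 6 h, Psmd10 (1.22), and 4 rose at 24 h, again led by Psmd10 (1.32). Over all genes 14.2% and 10.2% were called higher in those comparisons. The other activators Psme3 and Psme4 and the inhibitor Psmf1 were called in 0 genotype comparisons.

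Among 15 tested genes of peptide loading and trimming, 0 were called between unstimulated genotypes, where 1587 of all 11260 genes were. In KO cells the tapasin-related Tapbpl (1.81), the aminopeptidase Lap3 (1.72) and Lnpep (0.99) rose at 6 h, and the same 3 rose in control cells (0.96, 1.36 and 1.2). Over all genes 14.2% were called higher at 6 h in KO cells and 7.15% in control cells. At 24 h in KO cells Tapbpl (1.74) and the trimming enzyme Erap1 (0.82) were higher, while the peptidase Tpp2 (-0.69) and the chaperones Pdia3 (-0.53) and Calr (-0.48) were lower. In that comparison 10.2% of all genes were called higher and 883 of 11260 lower.

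Of 13 other class I heavy chain genes tested, 0 were called between unstimulated genotypes, 1 at 6 h (H2-M3, 1.02 higher in KO) and 0 at 24 h. Over all 11260 genes, 1587, 1364 and 1735 were called in these comparisons. With LPS in KO cells 5 rose at 6 h and 11 at 24 h, led by H2-T22 (2.21 and 2.74), where 14.2% and 10.2% of all genes were called higher. In control cells 3 and 4 rose, where 7.15% and 7.23% of all genes were called higher. List medians at 24 h were 1.61 in KO and 0.88 in control cells. Some heavy chain genes are near-identical copies, so a probe for 1 of those may also report others, which was not tested.

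Of 20 tested regulators of class I genes, 5 were called lower in unstimulated KO cells, where 7.13% of all genes were. The regulators Nlrc5 and Rfx5, also on the list, were not among the genes tested, so nothing is known of them here. Irf4, the floxed gene, was among them, and its fall follows from the design. The others were the class II transactivator Ciita (-1.93), the NF-kB subunit Relb (-1.08), the interferon signalling factor Irf9 (-0.92) and Nfyb (-0.42). Ciita is also counted among the dendritic cell markers above. Irf1 (-0.13) and Irf8 (0.24) were not called there. LPS at 6 h raised 11 in KO and 5 in control cells, where 14.2% and 7.15% of all genes were called higher. These counts include Irf4 itself (1.38 and 0.90). Both were led by Irf7 (4.76 and 3.41), Stat2 (3.75 and 2.01) and Irf1 (3.40 and 1.57).

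Across the 30 arrays the members differed in likeness to each other. Psmb8 and Psme1 were closest (Pearson's r = 0.978), Tapbp correlated at 0.939 with B2m and with Tap2, and B2m and Psmb9 were farthest apart (r = 0.314). The genes nearest to the mean of the members were Trex1 (r = 0.960), Stat2 (0.960), Nod2 (0.957), Rnf114 (0.955), Slamf7 (0.943) and Ehd1 (0.940). Outside the set, Traf1 was nearest to Psmb8 (0.963), Psmb9 (0.969) and Psme1 (0.950), Trex1 to Tap1 (0.975), Adgrb1 to Tap2 (0.962), Rnaset2b to Psmb10 (0.965), Lgals3bp to Tapbp (0.968) and H2-Q7 to B2m (0.984). These values describe arrays that share groups, slides and the reference RNA, and carry no test.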

How the data were processed

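RNA from 6 groups of 5 samples was read on two-colour arrays. Spot intensity values (median Cy5, Cy3 and local backgrounds) were deposited as scanned. Per the file headers, Feature Extraction 10.7.3.1 wrote them, along with deposited log10 ratios that it had dye normalised. A series table holds the authors' log2 ratios, deposited after processing for which the submitters' processing notes list limma. Set against the same array's log2 ratios as processed for the main fit below, its columns correlated at 0.999885 to 0.999998. Their medians were 0.00584 to 0.0183. The columns are thus log2 sample over reference, processed nearly as in the main fit.

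With limma 3.58.1 (R 4.3.3), intensities were corrected by normexp (offset 50) and each array's log2 ratios by loess, with non-uniform local backgrounds set to the array's median. The 1639 control spots and spots marked as outliers were left out. Of 41174 probes 22951 were named through RefSeq accessions. A gene was tested if a probe passed the scanner's Cy5 background flag throughout at least 1 group's 5 arrays. The brightest probe stood for a gene.

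One mean per group was fitted to all 30 arrays (24 residual degrees of freedom), with 11 comparisons, no blocks and empirical Bayes variances. The fit was tested on simulated data with independent noise and no slide or replicate effects, so that test cannot speak to such effects here. Named genes were the members, their constitutive counterparts, up to 3 called genes per list with the largest differences (for cell type markers, examples) and the nearest genes by correlation. Members and lists were chosen with earlier results of these data known. Alternatives were other normalizations, filters, probe rules, blocks, sample sets and leaving out each array. Promoter sequences are RefSeq's, on GRCm38.p6.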

Additional observations from a re-analysis of the deposited data

Results flagged for a closer look

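In 3 of 48 sets of 5 arrays (8 genes in 6 groups) the lowest array stood apart from the other 4 by a Dixon test. All 3 were arrays of the later slide, where chance flags about 1 group in 20. Psmb9 was at 1.48 in control LPS 6 h replicate 3, against 3.27 to 3.49 in the other 4 arrays, and at 2.55 in control LPS 24 h replicate 2, against 3.14 to 3.21. Psme1 was at 0.37 in control LPS 6 h replicate 3, against 1.38 to 1.70. The LPS response of Psmb8 differed between genotypes in limma, by 1.22 at 6 h and 1.15 at 24 h on the log2 scale. Both values rest on the same unstimulated arrays, where Psmb8 differed by -1.14. After LPS it differed by 0.0746 and 0.0025, neither called. Both response calls were lost with background as scanned and with slide and replicate set terms.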

How the results depend on the processing

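Of 25 called differences, 8 stayed called under all 14 other settings. Agilent's log ratios, the authors' table and probe means left every count of called genes within 1.5 times. The authors' table nearly repeats the log2 ratios of the main fit, so little change could arise there. The number called, by comparison, was otherwise as follows. KO against control at 0 h (3): 5 with the slide as a block and 0 with slide and replicate set terms, a setting added after seeing the data. At 24 h (1): 0 with background as scanned, without a filter, without the later slide, with the compared arrays alone and with slide and replicate set terms, 6 with the slide block and 2 with trend and array weights. At 6 h (0): 1 with Cy5 alone, the replicate block or the replicate set term, and 2 with trend and weights. LPS 6 h in control (2): 8 with the slide block, 4 without the later slide, 7 with trend and weights, 6 with slide and replicate set terms, and 0 with the compared arrays alone. LPS 24 h in control (4): 8 with the slide block and with trend and weights. LPS 24 h in KO (7): 0 with slide and replicate set terms. LPS 24 against 6 h in KO (0): 5 with the slide block and with trend and weights, and 1 with the replicate set term, without the later slide and with the compared arrays alone. In control (0): 2 with the slide block and 1 with slide and replicate set terms. The response difference at 24 h (1): 2 with median centring and the replicate block, 0 with background as scanned and slide and replicate set terms, 5 with the slide block and with trend and weights, 4 with the replicate set term, and 3 without the later slide and with the compared arrays alone. At 6 h (1): 3 with median centring, 2 with the replicate block, the replicate set term and without the later slide, 0 with background as scanned, the slide block, slide and replicate set terms and the compared arrays alone, and 4 with trend and weights.

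The slide block reversed signs. For KO against control at 0 h it gave 1.38 for Psmb10, 2.18 for Tap1 and 2.61 for Tap2. For KO against control at 24 h it gave -4.58 for B2m, -1.39 for Psmb10, -1.18 for Psmb8, -3.49 for Tap1, -3.15 for Tap2 and -4.61 for Tapbp. For LPS 24 h in KO cells it gave -4.47 for B2m, -1.23 for Psmb10, -1.74 for Tap1, -2.82 for Tap2 and -4.52 for Tapbp, and against 6 h -5.43 for B2m, -4.68 for Tap2 and -6.46 for Tapbp. For the 24 h response difference it gave -8.89 for B2m, -2.76 for Psmb10, -0.87 for Psmb8, -5.67 for Tap1, -5.76 for Tap2 and -8.91 for Tapbp. The cause was not tested.

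Leaving out 1 array gave these ranges of called genes. KO against control had 3 to 3 at 0 h, 0 to 1 at 6 h and 0 to 1 at 24 h. LPS had 0 to 4 at 6 h and 3 to 4 at 24 h in control, and 6 to 6 and 5 to 8 in KO cells. LPS 24 against 6 h had 0 to 0 in each genotype, and the response differences had 0 to 2 at 6 h and 0 to 1 at 24 h.

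Same-numbered arrays were not taken as pairs, because the correlation of their deviations was below 0 for some pairs (lowest -0.335). Its medians per number were 0.392 to 0.689 and 20 of 30 arrays lay nearest to one of their own number, a hint from the data. The replicate block ended no call among the members and added 8 (adjusted p in limma): Tap1 between unstimulated genotypes (0.0218), Psmb10 between genotypes at 6 h (0.0202), the response differences of Psmb9 at 6 h (0.0300) and Psme1 at 24 h (0.0361), B2m at LPS 24 h in KO (0.00365) and control (0.0303), and Tapbp at LPS 6 h in KO (0.0130) and 24 h in control (0.0460). The 5 arrays per group limit the precision, and probe signals well above background were needed.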
